A study of Sus scrofa with 54 samples.

Results

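The interferon-linked genes DDX58, DDX60, DTX3L and PARP12 were followed in the ileum of piglets. They were found by symbol in the platform annotation of the GeneChip Porcine Genome array, which gave 5 probesets of the 23999 that were not controls. DDX58 was read by 2 probesets, and the name of the second ends in _s_at, which marks probes that can match other transcripts too. DDX60, DTX3L and PARP12 were read by 1 probeset each. All 5 were tested, and no filter on dim probesets was set. The study asked how the hygiene of early housing affects the gut, and gave 1 array to each of 54 piglets. The IR piglets were moved from indoor sows to individual isolators soon after birth, were fed milk replacer and received a daily antibiotic cocktail of Baytril and Amoxinsol throughout. The IN piglets suckled indoor sows and the OUT piglets suckled outdoor sows. All were Large White × Landrace pigs sired by the same boar, those kept past day 28 were weaned then and fed creep feed, and 6 of each group were killed at day 5, 28 and 56. IR and IN piglets came from the same indoor sows and OUT piglets from other sows on another site, so that housing, dam and site cannot be told apart in comparisons with OUT. Isolation, antibiotics and milk replacer cannot be told apart in IR piglets. The labels do not tie piglets to sows.

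DDX58 encodes RIG-I, a helicase in the cytoplasm that binds viral RNA with unmasked ends and signals through the adaptor MAVS to switch on type I interferon. Secreted interferon acts through its receptor, JAK kinases and a transcription factor complex that holds STAT2 and IRF9, and this raises the mRNA of many antiviral genes, RIG-I included. DDX60 is a related helicase, and DTX3L is a ubiquitin ligase that pairs with the ADP-ribosyltransferase PARP9. PARP12 is a zinc finger ADP-ribosyltransferase that restricts RNA viruses in human and mouse cells. In the gut such genes are known to answer to viruses and to resident microbes.

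The values are log2 intensities, with array medians from 3.99 to 4.22. The epithelial genes on the array (6 of 9 listed, among them FABP2 and VIL1) averaged between 8.20 and 13.18 per array, as for tissue of the intestine. Of the 54 arrays, 6 correlated best with a group of another day. The array labelled OUT day 5 replicate 3 had a mean correlation of 0.88 with its own group and the lowest epithelial mean, 8.20. The array labelled IN day 28 replicate 3 goes against its label. It correlated better with IN day 5 (mean r = 0.973) than with IN day 28 (mean r = 0.935), and its T cell genes averaged 3.16, against 5.61 to 7.97 in the other IN day 28 arrays. OUT day 28 replicates 1 and 2 also correlated best with IN day 5, at a mean r of 0.969 and 0.966. IN day 28 replicates 4 and 5 correlated best with IR day 56. Calls and log2 differences that rest on OUT day 5 replicate 3, or on the day 28 arrays like IN day 5, are given with and without them. Interaction terms, likeness and relations to cell markers were taken with all 54 arrays only.

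DDX58 spanned a wide range among piglets, with a gap near the middle of its first probeset. On the first probeset 30 arrays lay at or below 6.25 and 24 at or above 7.10, which is the widest gap among the 54 values. The upper part held 2 of 6 IR, 0 of 6 IN and 0 of 6 OUT piglets at day 5, and 4 of 6 piglets of each group at day 28. At day 56 it held 2 of 6 IR, 5 of 6 IN and 3 of 6 OUT piglets. The split was set on the first probeset only. OUT day 56 replicates 4 and 6, in the upper part here, were at 5.61 and 5.30 on the second probeset. OUT day 28 replicates 4 and 6 were at 6.30 and 7.01 there, inside the gap, so that these counts hold for the first probeset alone. Since RNA came from whole tissue, more cells of a type that carries these mRNAs and more mRNA per cell cannot be told apart.

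At day 5, DDX58 on the first probeset had a lowest, median and highest value of 4.45, 4.97 and 9.42 in IR, 3.34, 4.26 and 5.22 in IN, and 3.29, 5.08 and 5.38 in OUT. The IR piglets 1 and 2 stood alone at 9.36 and 9.42, and the other 4 IR piglets lay among the OUT piglets. At day 28 the 3 values were 4.0, 9.20 and 10.27 in IR, 4.17, 8.65 and 9.64 in IN, and 4.04, 7.52 and 9.55 in OUT. The low piglets were IR 1 and 2, IN 3 and 4, and OUT 1 and 2, and every group overlapped the others. At day 56 the values were 4.31, 5.16 and 10.56 in IR, 6.25, 8.34 and 10.02 in IN, and 4.45, 5.99 and 8.96 in OUT. IR piglets 5 and 6 were the high ones here, at 10.56 and 10.17, and no IN piglet fell to the level of the other IR piglets. The order of the group means ran from IN day 5 (4.27 ± 0.72, SD, n = 6) to IN day 56 (8.23 ± 1.37).

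**Figure D1:**
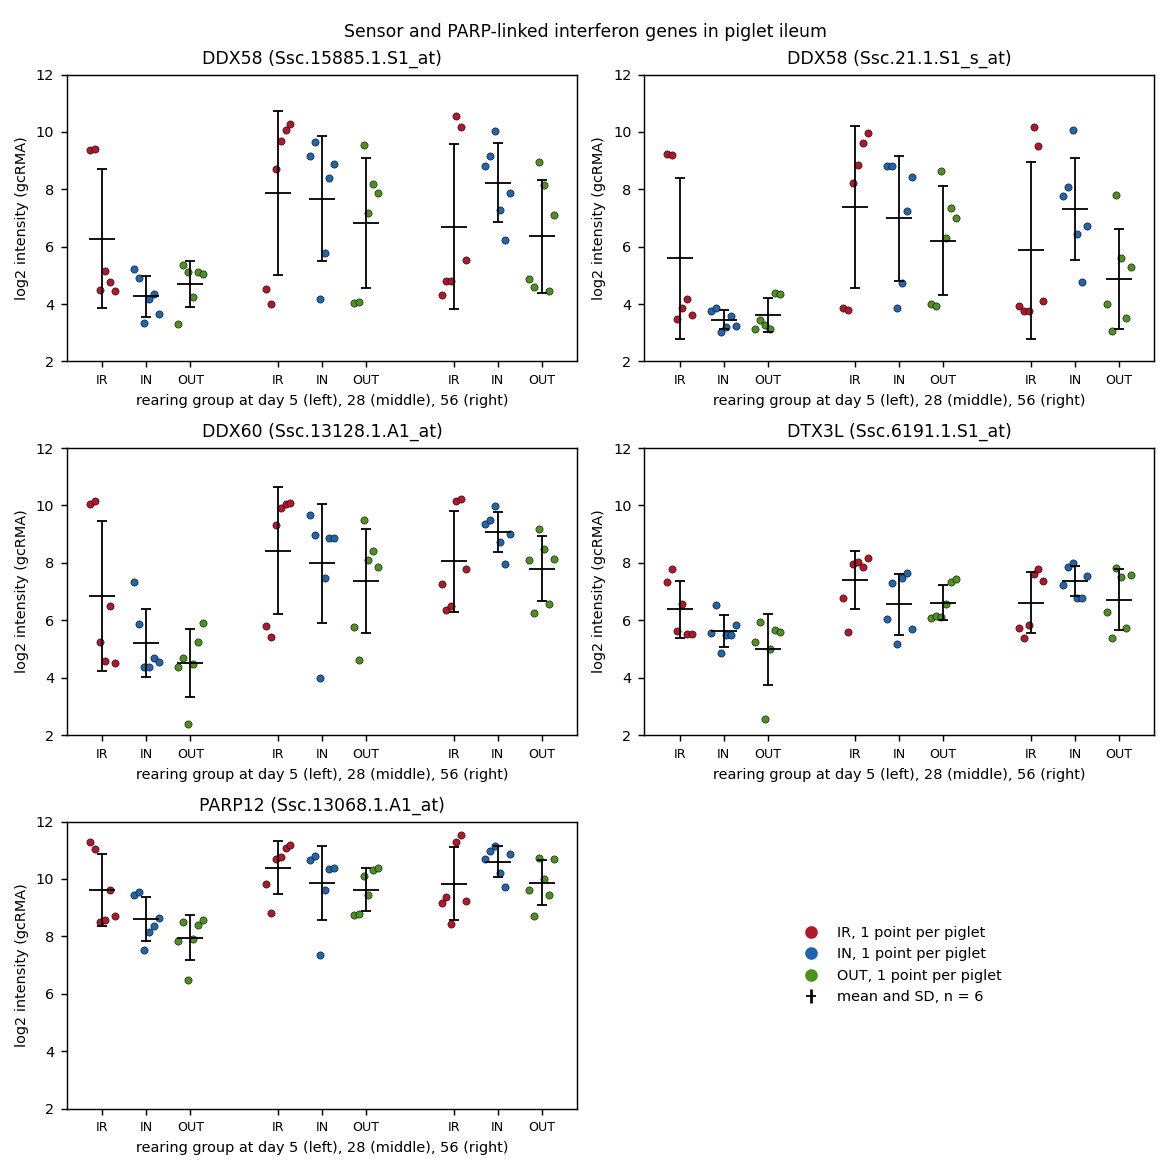
Log2 intensity of each probeset (vertical axis) in the 6 piglets of the IR, IN and OUT groups (horizontal axis) at day 5, 28 and 56, with 1 point per piglet and the mean and SD of each group. DDX58 on the first probeset has a gap between 6.25 and 7.10, within which the second probeset has values, and DDX60 spreads over its range. On the first DDX58 probeset IR piglets 1 and 2 at day 5 (9.36 and 9.42) lie far above the rest of their group. So do IR piglets 5 and 6 at day 56 (10.56 and 10.17).

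The second DDX58 probeset ranked the piglets much alike (Spearman's rho 0.91 over 54 arrays). Among the 30 arrays below the gap of the first probeset rho was 0.47, and among the 24 above it 0.96. At day 5 the lowest, median and highest values were 3.48, 4.01 and 9.22 in IR, 3.03, 3.41 and 3.85 in IN, and 3.12, 3.35 and 4.38 in OUT. At day 28 they were 3.79, 8.55 and 9.96 in IR, 3.86, 7.83 and 8.82 in IN, and 3.93, 6.66 and 8.64 in OUT. Every IN piglet at day 28 was thus above every IN piglet at day 5, by a small margin for the array that goes against its label. That margin, 3.86 against 3.85, lies below the lowest array median, 3.99, as do all IN values of this probeset at day 5. At day 56 the values were 3.76, 4.02 and 10.16 in IR, 4.77, 7.24 and 10.07 in IN, and 3.07, 4.64 and 7.81 in OUT.

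DDX60, the helicase related to RIG-I, had a lowest, median and highest value of 4.51, 5.87 and 10.14 in IR, 4.37, 4.62 and 7.34 in IN, and 2.40, 4.58 and 5.90 in OUT at day 5. At day 28 the values were 5.42, 9.61 and 10.08 in IR, 4.0, 8.87 and 9.67 in IN, and 4.63, 7.97 and 9.49 in OUT. At day 56 they were 6.34, 7.52 and 10.24 in IR, 7.97, 9.17 and 9.97 in IN, and 6.26, 8.12 and 9.19 in OUT. The piglets high in DDX58 were the high ones here too, IR piglets 1 and 2 at day 5 (10.04 and 10.14) and IR piglets 5 and 6 at day 56 (10.17 and 10.24). The lowest value of all, 2.40, was that of OUT day 5 replicate 3. The group means ran from OUT day 5 (4.51 ± 1.18) to IN day 56 (9.08 ± 0.69).

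DTX3L, the ubiquitin ligase partner of PARP9, moved over a narrower range. At day 5 the lowest, median and highest values were 5.53, 6.08 and 7.77 in IR, 4.85, 5.52 and 6.53 in IN, and 2.56, 5.41 and 5.93 in OUT. At day 28 they were 5.59, 7.92 and 8.17 in IR, 5.16, 6.68 and 7.66 in IN, and 6.08, 6.36 and 7.44 in OUT. The OUT piglets at day 28 were all above those at day 5. At day 56 the values were 5.38, 6.61 and 7.77 in IR, 6.76, 7.38 and 7.99 in IN, and 5.37, 6.89 and 7.83 in OUT. The group means ran from OUT day 5 (4.99 ± 1.24) to IR day 28 (7.40 ± 1.02).

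PARP12, the zinc finger ADP-ribosyltransferase, was well above the array medians in every piglet. At day 5 the lowest, median and highest values were 8.50, 9.17 and 11.27 in IR, 7.52, 8.50 and 9.54 in IN, and 6.5, 8.16 and 8.58 in OUT. Of the 6 IR piglets 5 lay above all OUT piglets, with IR piglets 1 and 2 the highest at 11.27 and 11.04, and the groups overlapped at the lowest IR piglet. At day 28 the values were 8.80, 10.74 and 11.19 in IR, 7.36, 10.37 and 10.79 in IN, and 8.76, 9.76 and 10.38 in OUT. All OUT piglets at day 28 were above all OUT piglets at day 5. At day 56 the values were 8.44, 9.29 and 11.55 in IR, 9.72, 10.79 and 11.14 in IN, and 8.69, 9.82 and 10.73 in OUT. The group means ran from OUT day 5 (7.95 ± 0.78) to IN day 56 (10.60 ± 0.54).

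When the 9 group means of a probeset were put in order, which keeps each step small, no neighbours differed by more than the larger of their SDs in any of 40 steps. The exact permutation p of these steps, which was not adjusted, lay between 0.119 and 0.998. This says nothing of groups farther apart in the order.

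Day 28 was first set against day 5 within each rearing group, in 1 limma fit of the 9 groups. To be called, a probeset had to differ at least 2-fold with a limma p, before adjustment, below 0.01, which is the study's criterion, and p-values adjusted by Benjamini-Hochberg over all probesets stand beside it. In IN piglets DDX58 and DDX60 rose, with 3 of 5 probesets called where 8.08% of all probesets were, and 4 had an unadjusted p under 0.05, as did 34.1% of all. The same count of 3 passed an adjusted p of 0.05, which 21.1% of all probesets did. The log2 difference was 3.41 for DDX58 on the first probeset (SE 1.17, limma adjusted p = 0.0322), 3.54 on the second (SE 1.19, limma adjusted p = 0.0284) and 2.78 for DDX60 (SE 0.97, limma adjusted p = 0.0353). On the second DDX58 probeset all IN values at day 5, 3.03 to 3.85, lay below the lowest array median, 3.99, so that its rise starts from dim values. DTX3L and PARP12 had differences of 0.93 and 1.26 and did not pass. By the exact permutation test DDX58 had p = 0.013 and 0.00216 on its 2 probesets, of which 0.00216 is the smallest that 6 arrays against 6 allow, and DDX60 p = 0.0325.

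In OUT piglets DDX60, DTX3L and PARP12 rose, and 3 of 5 probesets were called against 6.93% of all, again with 4 at an unadjusted p under 0.05, where 30.2% of all probesets were. An adjusted p under 0.05 was found for 3 of 5, against 17.1% of all. The log2 difference was 2.86 for DDX60 (SE 0.97, limma adjusted p = 0.0349), 1.62 for DTX3L (SE 0.53, limma adjusted p = 0.0273) and 1.68 for PARP12 (SE 0.54, limma adjusted p = 0.0263). DDX58 had differences of 2.12 and 2.59 and was not called on either probeset. The exact permutation p was 0.00216 for DTX3L and for PARP12, whose days did not overlap, and 0.0152 for DDX60. How many of all probesets did not overlap between these days was not counted, in OUT or in IN.

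In IR piglets 0 of 5 probesets were called, where 6.27% of all probesets were. At an unadjusted p under 0.05 there were 0 of 5, beside 26.9% of all, and 14.1% of all had an adjusted p under 0.05. All 5 differences were above 0, from 0.77 to 1.80 on the log2 scale, with limma p-values from 0.0614 to 0.18. With array weights all 5 were called, where 8.47% of all probesets were, with log2 differences of 2.87 and 3.15 for DDX58, 2.80 for DDX60, 1.46 for DTX3L and 1.31 for PARP12. The high IR piglets 1 and 2 at day 5 and the low IR piglets 1 and 2 at day 28 lie on opposite sides of this comparison. Whether the day difference itself differed between rearing groups was tested by interaction terms, given after the rearing comparisons.

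The counts for days rest on few arrays. In IN piglets the count was 4 of 5 without the array that goes against its label, and 0 without IN day 28 replicate 1, 2 or 6. In OUT piglets it was 1 of 5, PARP12, without OUT day 5 replicate 3 and IN day 28 replicate 3, and 0 without OUT day 5 replicate 3 alone or OUT day 28 replicate 6. Without the 3 day 28 arrays that resemble day 5, it was 5 of 5 in OUT and 4 of 5 in IN. Under that setting 11.4% of all probesets were called in OUT and 10.8% in IN. These 3 arrays, and the pair that stands apart, were chosen after the values were seen. Since the 3 arrays were left out of day 28 for a profile like that of day 5, the higher counts follow in part from the choice. Cell markers moved with age as well, with 6 of 7 T cell genes higher at day 28 than at day 5 in each rearing group and a mean per array of 2.94 to 3.66 over all day 5 arrays. OUT day 28 replicates 1 and 2, both low in DDX58, had T cell means of 4.12 and 4.53, while the other 4 lay between 5.79 and 7.80. IR day 28 replicates 1 and 2 were equally low in DDX58 with T cell means of 7.64 and 6.79, in the range of the other IR piglets or above. In every rearing group the plasma cell gene JCHAIN and the macrophage gene CD163 were also called higher at day 28. IRF8 of the plasmacytoid dendritic cell list and the epithelial gene FABP6 were called higher too, and the endothelial genes CDH5 and VWF lower. IRF8 was the only 1 of 3 genes of its list called, and 2 of 3 lay above 0 in each rearing group. In IN and OUT all 3 had an unadjusted p under 0.05, the gene below 0 included. FABP6 was the only 1 of 6 epithelial genes called in IR and in IN, with 5 of 6 above 0. In OUT piglets the epithelial genes VIL1 and FABP2 were higher too. The part of cell composition in the day differences was not tested.

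Between day 56 and day 28 no member was called in any rearing group, and 0 of 5 had an unadjusted p under 0.05 in each. Of all probesets 18.5% in IR, 19.5% in IN and 22.0% in OUT had such a p. The criterion was met by 2.42% of all probesets in IR, 2.57% in IN and 3.06% in OUT, and an adjusted p under 0.05 by 4.89%, 5.32% and 7.68%. All 5 log2 differences were below 0 in IR, from -1.52 to -0.38, and all 5 were above 0 in IN, from 0.32 to 1.10. Without the IN array that goes against its label, DDX58 turned to -0.15 and -0.30 and DDX60 had 0.31. In OUT they lay between -1.32 and 0.42.

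**Figure D2:**
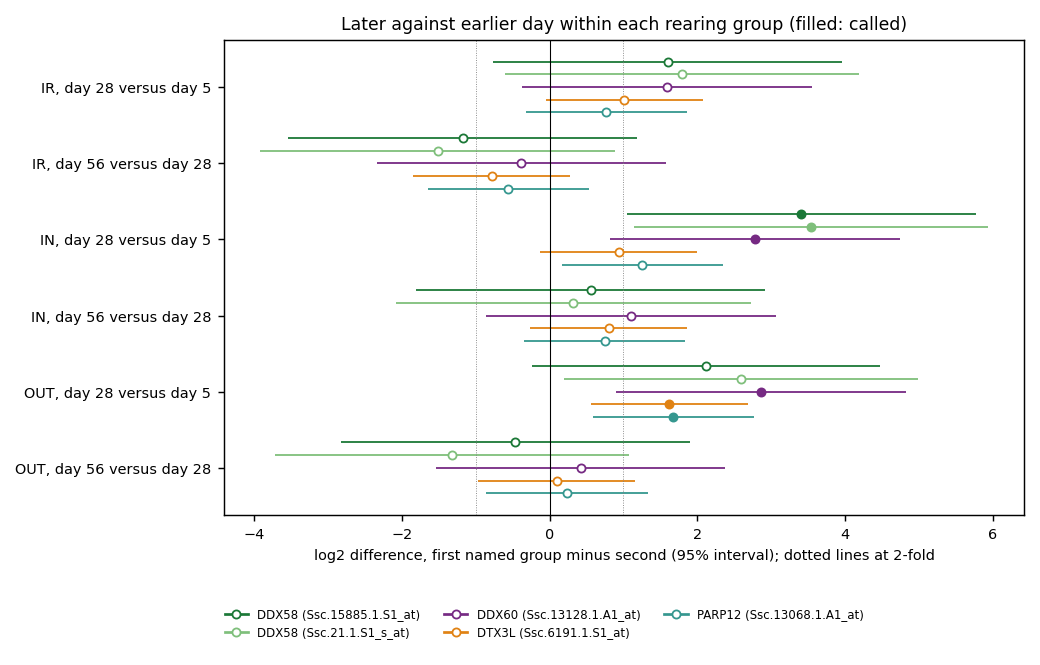
Log2 difference between the later and the earlier day (horizontal axis) for each probeset in each rearing group (rows), with its 95% interval from the limma fit, filled where called. Day 28 against day 5 gives filled points for DDX58 and DDX60 in IN (2.78 to 3.54) and for DDX60, DTX3L and PARP12 in OUT (1.62 to 2.86), and the comparisons of day 56 with day 28 give none.

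At day 5, IR piglets were set against OUT piglets, the extremes of housing. PARP12 was higher in IR, with a mean of 9.62 ± 1.26 against 7.95 ± 0.78 in OUT (SD, n = 6 each) and a log2 difference of 1.67 (SE 0.52, 95% interval 0.57 to 2.77). In this fit, which has no block, PARP12 was the only member called, 1 of 5, where 0.338% of all probesets were. Blocks on the label numbers changed this count, as given with the processing. At an unadjusted p under 0.05 there were 4 of 5, beside 6.26% of all. The limma p of PARP12 was 0.00507 unadjusted and 0.723 adjusted over all probesets, and its exact permutation p was 0.00433. DDX60 had the largest difference, 2.33 (SE 0.97), DDX58 had 1.57 and 1.98 on its 2 probesets (SE 0.82 and 0.90), and DTX3L had 1.39 (SE 0.52). The median of the 5 differences was 1.67, beside 0.01 over all probesets. The exact permutation p was 0.24 and 0.139 for DDX58, 0.0801 for DDX60 and 0.0519 for DTX3L.

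Most of the difference in DDX58 and DDX60 at day 5 came from IR piglets 1 and 2. Without IR piglets 1 and 2, left out after their values were seen, no member was called, and the log2 differences were 0.02 and 0.17 for DDX58, 0.70 for DDX60, 0.81 for DTX3L and 0.90 for PARP12. Without OUT piglet 3 the call of PARP12 was lost at a log2 difference of 1.38, while DDX58 had 1.66 and 1.90, DDX60 1.91 and DTX3L 0.91. OUT piglet 3 was also low in epithelial genes, with a mean of 8.20 where the IR arrays of that day lay between 10.91 and 12.10, and high in smooth muscle and endothelial genes (13.26 and 8.35). Of the 5 endothelial genes 1, LYVE1, was lower in IR than in OUT, and 4 had an unadjusted p under 0.05. The ratio of signal from both ends of the GAPDH transcript, a sign of RNA quality, lay between 0.15 and 0.83 in IR and between 0.31 and 0.94 in OUT on the log2 scale. The part of these in the difference was not tested.

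At day 28 and day 56, no member differed between IR and OUT by the criterion, 0 of 5 at each day, where 0.154% and 0.283% of all probesets were called. At an unadjusted p under 0.05 there were also 0 of 5 at each day, beside 2.58% and 7.18% of all. The log2 differences at day 28 were all above 0, from 0.76 for PARP12 to 1.18 for DDX58 on the second probeset, and the widest 95% interval, that of DDX58 on the first probeset, ran from -1.75 to 3.85. Without the day 28 arrays that resemble day 5, DDX58 had -0.33 and 0.06 and DDX60 -0.028. At day 56 they lay between -0.09 for DTX3L and 0.99 for DDX58, and the intervals for DTX3L (-1.14 to 0.95) and PARP12 (-1.07 to 1.01) left room for about a 2-fold difference either way. Without the high IR piglets 5 and 6 all 5 differences at day 56 were below 0, from -1.50 to -0.63, and none was called. Of the 7 T cell genes 1, CD247, was lower in IR than in OUT at day 56 and 6 had an unadjusted p under 0.05, and their part in the values of the members was not tested.

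IN piglets were set against OUT piglets, both reared on the sow, with the same OUT arrays that served the IR comparisons. No member was called at day 5, 28 or 56, 0 of 5 each time, where 0.05%, 0.192% and 0.275% of all probesets were. At an unadjusted p under 0.05 there were also 0 of 5 each time, beside 3.97%, 5.0% and 7.83% of all. At day 5 the log2 differences ran from -0.43 to 0.69, and at day 28 from -0.06 to 0.86. Without OUT day 5 replicate 3 those at day 5 ran from -0.35 to 0.36. Without IN day 28 replicate 3 those at day 28 ran from 0.22 to 1.56. Without the 3 day 28 arrays that resemble day 5 they ran from -0.03 to 0.32. No member was called in these settings, where 0.0292%, 0.167% and 0.354% of all probesets were. At day 56 all 5 were above 0, from 0.65 for DTX3L to 2.42 for DDX58 on the second probeset (SE 1.22, 95% interval -0.16 to 5.00). DDX60 averaged 9.08 ± 0.69 in IN and 7.79 ± 1.14 in OUT, with an exact permutation p of 0.039, and the second DDX58 probeset averaged 7.31 ± 1.79 and 4.89 ± 1.74, with an exact permutation p of 0.0433. Neither was adjusted over the 45 member tests between rearing groups, of which 4 had an exact p under 0.05.

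IR and IN piglets came from the same sows. At day 5 no member was called, 0 of 5 against 0.367% of all probesets, and 2 had an unadjusted p under 0.05, both for DDX58, where 7.60% of all did. Its log2 differences were 2.0 and 2.15 (SE 0.82 and 0.90), with a limma adjusted p of 0.611 for both and exact permutation p-values of 0.0671 and 0.0325. Without IR piglets 1 and 2 they were 0.45 and 0.34. At day 28 no member was called, 0 of 5 against 0.496%, and 0 of 5 had an unadjusted p under 0.05, where 6.75% of all did. The differences ran from 0.19 to 0.84. Without the IN array that goes against its label, DDX58 and DDX60 turned to differences between -0.51 and -0.22. At day 56 no member was called, 0 of 5 against 0.288%, and 0 of 5 had an unadjusted p under 0.05, where 6.16% of all did. All 5 differences were below 0, from -1.54 to -0.74. Without IR piglets 5 and 6, again chosen after their values were seen, 4 of 5 were called at day 56, with log2 differences of -3.38 and -3.41 for DDX58, -2.11 for DDX60 and -1.56 for PARP12 and a lowest limma adjusted p of 0.167. Under that setting 1.14% of all probesets were called, and since both piglets were left out for their high values of these genes, the lower IR level follows in part from the choice.

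At an adjusted p under 0.05, 0 of 5 members passed in each of the 9 comparisons of rearing groups. Over all probesets this rule passed 0.00833% for IR versus OUT at day 5 and 0% at day 28 and day 56, and 0% for IN versus OUT at each day. For IR versus IN it passed 0.0125%, 0.00417% and 0.0167% at day 5, 28 and 56. The groups of piglets overlapped for every member in every comparison of rearing groups.

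**Figure D3:**
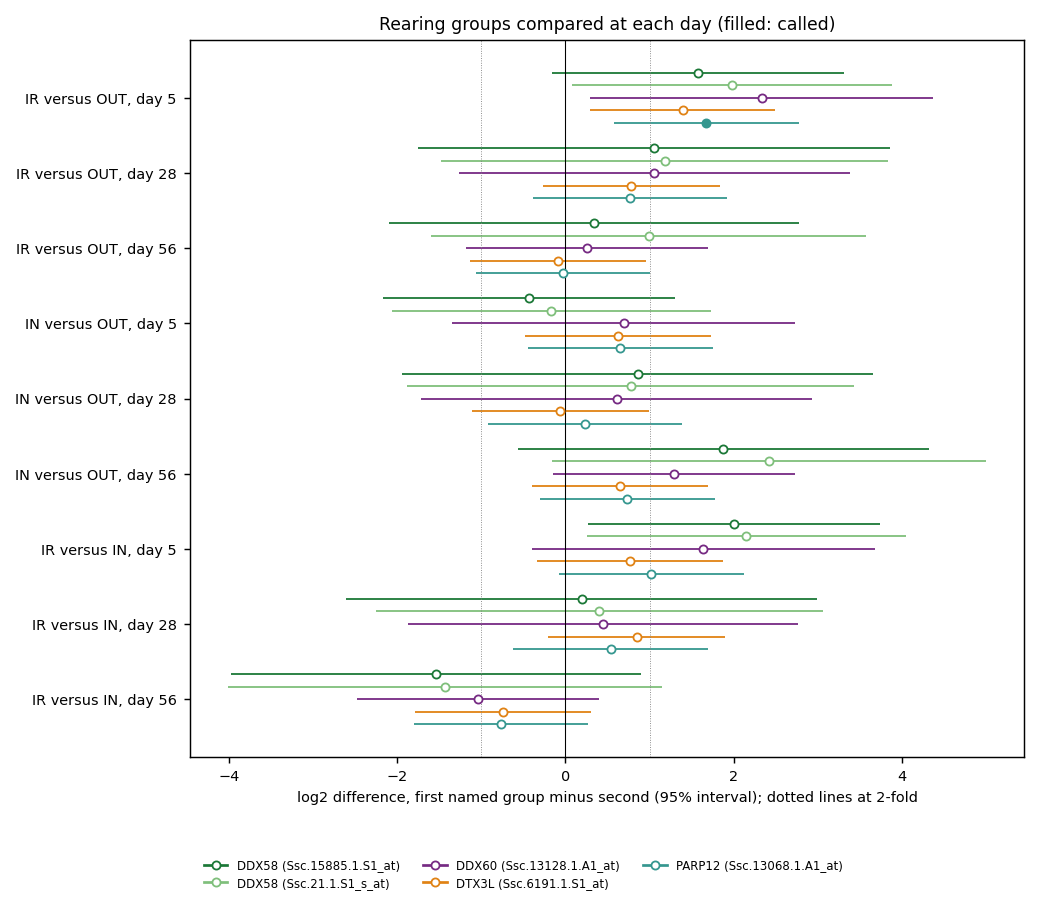
Log2 difference between rearing groups (horizontal axis) for each probeset at each day (rows), with its 95% interval from the limma fit, filled where called. PARP12 in IR versus OUT at day 5 (1.67) is the only filled point, and in IR versus IN all points lie above 0 at day 5 (0.77 to 2.15) and below 0 at day 56 (-1.54 to -0.74).

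Whether a rearing difference changed with age was tested by interaction terms in the limma fit of the 9 groups. For IR versus IN the difference at day 56 minus that at day 5 was below 0 for all 5 probesets, from -3.58 to -1.51. Of these 4 had an unadjusted p under 0.05, as did 8.28% of all probesets. The lowest limma adjusted p was 0.595, so that 0 of 5 passed, where 0.00833% of all probesets did. For IR versus OUT 1 of 5 had an unadjusted p under 0.05 between day 5 and day 56, as did 4.25% of all probesets. For IR versus IN 1 of 5 had it between day 28 and day 56, as did 8.06% of all. The other 6 terms gave 0 of 5 at an unadjusted p under 0.05, where 3.5% to 9.31% of all probesets were. At an adjusted p under 0.05 no member passed any of these 8 terms, which 0% of all probesets passed.

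The members followed each other from piglet to piglet. Over 54 arrays Pearson's r between probesets ranged from 0.73 to 0.98 and Spearman's rho from 0.79 to 0.95 over 10 pairs, all with a permutation p and adjusted p of 1e-05, the smallest that 100000 resamples can give. Without the 2 arrays farthest from the median of the first member, r ranged from 0.72 to 0.97. On deviations from the 9 group means, which take out day and rearing, r ranged from 0.65 to 0.97 and all 10 permutation p-values were 1e-05. Within day 5 r ranged from 0.61 to 0.96, within day 28 from 0.55 to 0.99 and within day 56 from 0.81 to 0.97, over 18 arrays each. The highest adjusted permutation p of these was 0.021. Spearman's rho ranged from 0.55 to 0.86, 0.55 to 0.98 and 0.86 to 0.98 within these days. At day 5 r takes in the high IR piglets 1 and 2. DDX58 on the first probeset and PARP12 had r = 0.78 but rho = 0.55 there. Both DDX58 probesets gave the closest pair (r = 0.98), DDX60 and PARP12 had r = 0.95, and the DDX58 and DTX3L pairs were the loosest (r = 0.75 and 0.73).

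Because DDX58 had this gap on its first probeset, the relation was also taken within the arrays on each side of it. Among the 24 arrays above the gap, DDX58 on the first probeset had r = 0.88 with DDX60 (permutation p = 1e-05) and 0.71 with PARP12 (permutation p = 6e-05), but 0.28 with DTX3L (permutation p = 0.183). Among the 30 arrays below it, r was 0.51 with DDX60 (permutation p = 0.0041), 0.41 with PARP12 (permutation p = 0.0246) and 0.37 with DTX3L (permutation p = 0.046). Adjusted over the 8 values, that for DTX3L in the low part was 0.0526. The low part of DDX58 reaches down to 3.29, below the lowest array median, 3.99. Both parts were set from the data and are not groups of the study.

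**Figure D4:**
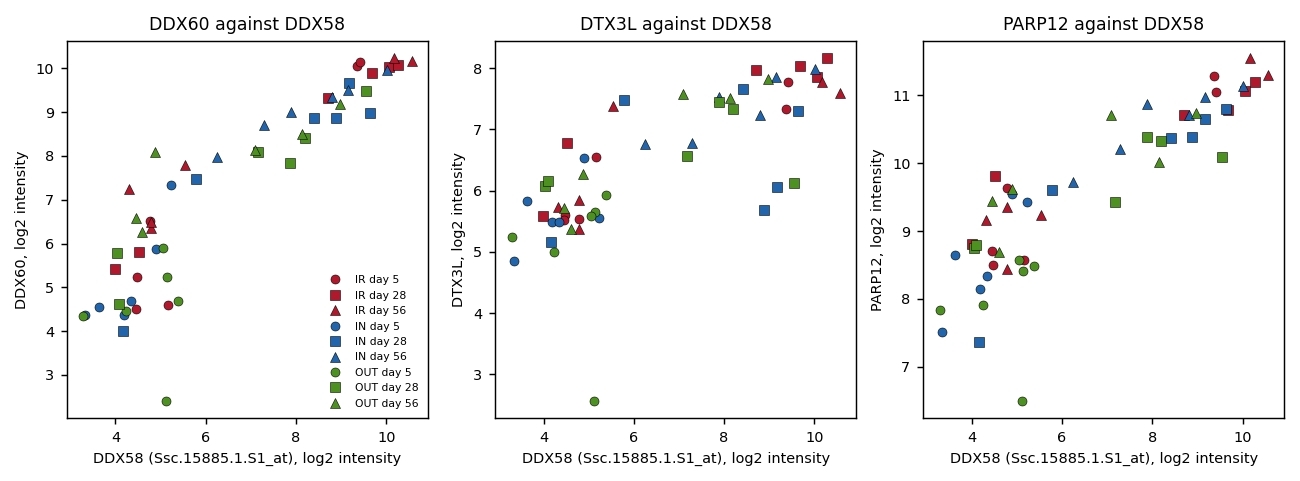
Log2 intensity of DDX60, DTX3L and PARP12 (vertical axes) against that of DDX58 on the first probeset (horizontal axis), 1 point per piglet, coloured by rearing group and shaped by day. DDX60 (r = 0.90) and PARP12 (r = 0.87) climb with DDX58, while DTX3L (r = 0.75) has a few piglets of day 28 that are high in DDX58 and near 6 in DTX3L.

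Piglets high in DDX58 and low in DTX3L were IN day 28 replicates 1 and 6 and OUT day 28 replicate 3, picked out after their values were seen. DTX3L was 6.06, 5.69 and 6.12 there, with DDX58 at 9.17, 8.89 and 9.55, DDX60 at 9.67, 8.88 and 9.49 and PARP12 at 10.65, 10.38 and 10.09. PARP9, which adjoins DTX3L in the RefSeq pig assembly and encodes its partner, was at 9.48 and 9.13 in the IN piglets and 9.13 in the OUT piglet. The other IN day 28 piglets had PARP9 between 9.78 and 10.29 apart from the array that goes against its label (8.00), and the other OUT day 28 piglets had it at 9.30 or above. DTX3L departed from DDX58 the other way in IN day 28 replicate 4, with DDX58 at 5.78 and DTX3L at 7.47, and in the unnumbered IR day 56 piglet, at 5.54 and 7.38. In the first 3 piglets low DTX3L and high DDX58 follow from the choice. Their PARP9 was below the median of their group, and their DDX60 and PARP12 above it. In IN day 28 replicate 6 this was by a hair, with DDX60 at 8.876 against a median of 8.874 and PARP12 at 10.380 against 10.371.

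Among 6764 other named genes, each read by its brightest probeset, those most like each member were sought by Pearson's r on deviations from the 9 group means over 54 arrays, as a description. DDX58 was most like XAF1 (r = 0.97), an interferon-induced partner of the apoptosis inhibitor XIAP, followed by the nucleic acid sensor ZBP1 and by RSAD2 (viperin), an antiviral enzyme, both at r = 0.92, USP18, which dampens interferon receptor signalling (r = 0.90), and DDX60 (r = 0.90). DDX60 was most like RSAD2 (r = 0.96), IFI44L (r = 0.94), ISG12(A) (r = 0.93), PARP12 (r = 0.92) and XAF1 (r = 0.91). PARP12 was most like IFIT3, an antiviral RNA-binding family member (r = 0.94), DDX60 (r = 0.92), RSAD2 (r = 0.91), IFI44L (r = 0.91) and the exonuclease ISG20 (r = 0.90). DTX3L was most like PARP9 (r = 0.87), PARP12 (r = 0.78), IFI44L (r = 0.77), IFIT3 (r = 0.76) and the poly(A) polymerase PAPD5 (r = 0.75). DTX3L ranked 92 by likeness to DDX58 and 41 by likeness to DDX60, while PARP12 ranked 18 and 4.

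The members were also set against cell markers and RNA quality in the same deviations. Over 54 arrays r with the mean of the epithelial genes was 0.20 and 0.24 for DDX58, 0.46 for DDX60 and for PARP12 and 0.54 for DTX3L. With the mean of the 7 T cell genes it lay between 0.25 and 0.44, and with that of 3 plasmacytoid dendritic cell genes between -0.01 and 0.30. With the 5 endothelial genes it was below 0 for every probeset, from -0.38 to -0.29, and with 4 macrophage genes it lay between -0.05 and 0.30. With the GAPDH end ratio it lay between -0.08 and 0.08. Spearman's rho lay between 0.19 and 0.38 with the epithelial genes and between -0.35 and -0.12 with the endothelial genes. For DTX3L it was 0.37 and -0.12, where r was 0.54 and -0.31. OUT day 5 replicate 3, low in DTX3L and in epithelial genes, is included in these values. These are descriptions over shared arrays, and the part of cell composition in the piglet differences was not tested.

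The wider pathway was read through 4 lists with 42 of 81 listed genes on the array. Among sensors and their signalling 18 of 32 listed genes were present. At day 5 IRF7, the transcription factor that drives interferon production, was higher in IR than in OUT. It was the only 1 of 18 called, where 0.338% of all probesets were, and 3 had an unadjusted p under 0.05, beside 6.26% of all. IRF7 averaged 7.48 ± 2.03 in IR and 5.16 ± 0.81 in OUT, with a log2 difference of 2.32 (SE 0.70, limma adjusted p = 0.70). ZBP1 had a difference of 2.12 and EIF2AK2, the RNA-activated kinase PKR, 0.71, and neither was called. MAVS, the adaptor of RIG-I, had 0.07, and the median of the list was 0.12, beside 0.01 over all probesets. In the other 14 comparisons of rearing groups and days 0 of 18 were called, with 0 to 6 at an unadjusted p under 0.05. Of all probesets 2.58% to 34.1% had such a p in these comparisons. The count of 6 was that of IR at day 28 against day 5, where 26.9% of all did.

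Among ADP-ribosyltransferases and deltex ligases 7 of 22 listed genes were present. In IR versus OUT at day 5 none was called and 2 had an unadjusted p under 0.05, as did 6.26% of all probesets. These were PARP9 with a log2 difference of 1.43 (SE 0.57) and MACROD1, which removes ADP-ribose, with 1.10 (SE 0.38). PARP9 was higher in OUT piglets at day 28 than at day 5, by 1.48 on the log2 scale (SE 0.43, limma adjusted p = 0.0132). So was PARP3, by 1.67 (SE 0.47, limma adjusted p = 0.0105), 2 of 7 in all, where 6.93% of all probesets were called. PARP8 was higher at day 28 than at day 5 in IR by 1.38 (SE 0.34) and in IN by 1.34 (SE 0.34). It was the only 1 of 7 called in each, where 6.27% and 8.08% of all probesets were. At day 28 PARP3 was higher in IR (10.47 ± 0.39) than in IN (9.0 ± 0.89), with a log2 difference of 1.47 (SE 0.35, limma adjusted p = 0.395). PARP3 was the only 1 of 7 called there, where 0.496% of all probesets were. In OUT at day 56 against day 28, where 3.06% of all probesets were called, PARP8 was higher by 1.16 and MACROD1 fell by 1.03. The remaining 9 comparisons called none.

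Among genes of interferon receptor signalling 14 of 18 were present. USP18 was the only 1 of 14 called in IR versus OUT at day 5, at 8.02 ± 2.01 in IR and 5.50 ± 1.04 in OUT, a log2 difference of 2.52 (SE 0.80, limma adjusted p = 0.74), and 4 had an unadjusted p under 0.05. Of all probesets 0.338% were called there and 6.26% had such a p. The median of the list was -0.07. IFNAR1, a chain of the receptor, had a log2 difference of -0.68 (SE 0.22) and was not called. At day 28 against day 5 the kinase JAK2, STAT2 and the feedback inhibitor SOCS1 were higher in IR, by 2.03, 1.57 and 1.95. These were 3 of 14, where 6.27% of all probesets were called. JAK2, USP18 and IRF9 were higher in IN, by 1.24, 3.17 and 1.27, which is 3 of 14, beside 8.08% of all. STAT2 and IRF9 were higher in OUT, by 1.33 and 1.49, 2 of 14 beside 6.93%. An unadjusted p under 0.05, in either direction, was found for 8 of 14 in IR, 8 in IN and 10 in OUT. Of all probesets 26.9%, 34.1% and 30.2% had such a p. No gene of this list was called in the other 11 comparisons.

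Of 9 listed interferon genes 3 were present. The group means of IFNA1 lay between 2.84 and 3.19 and those of IFNB1 between 1.85 and 2.09, below every array median. Neither was called in any comparison. IFNG, the type II interferon, was higher in IR at day 28 than at day 5, by 2.72 (SE 0.58, limma adjusted p = 0.000868). It was lower at day 56 than at day 28, by a log2 difference of -1.89 (SE 0.58, limma adjusted p = 0.048). Of all probesets 6.27% and 2.42% were called in these comparisons.

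**Figure D5:**
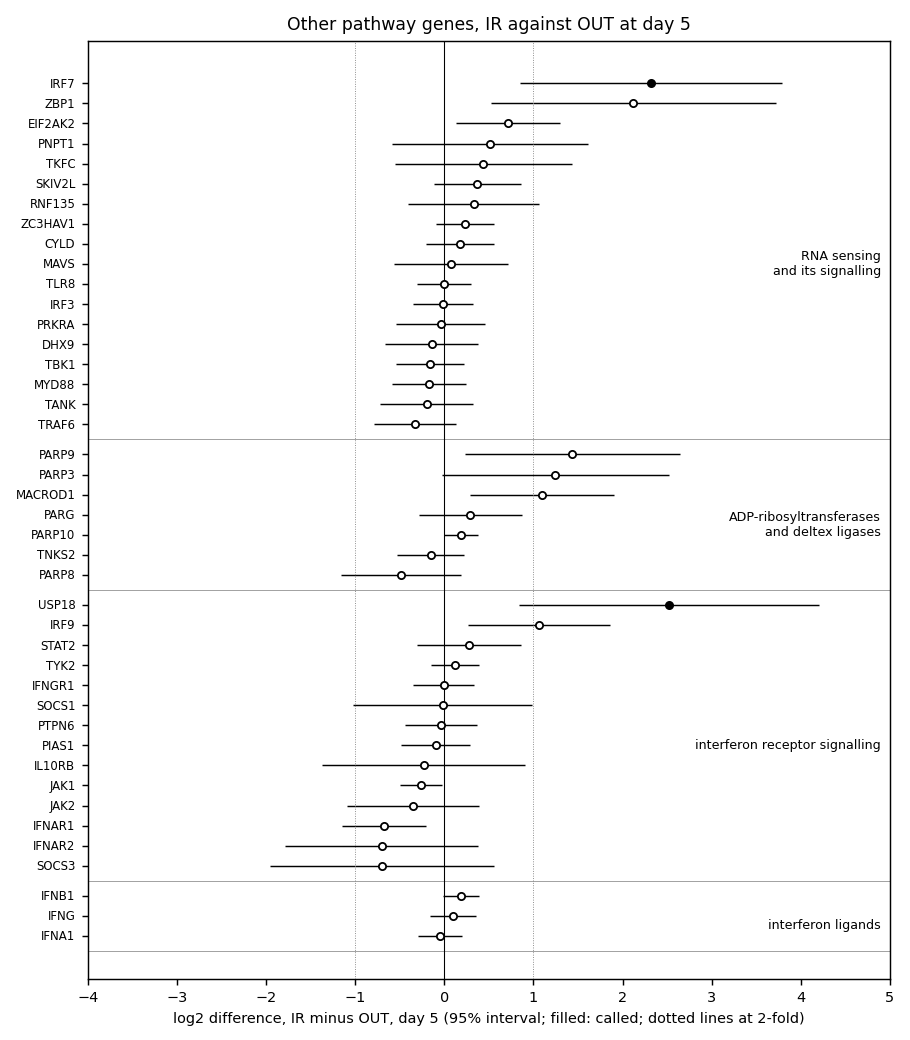
Log2 difference between IR and OUT at day 5 (horizontal axis) with its 95% interval for the 42 pathway genes on the array (rows, grouped by list), filled where called. IRF7 (2.32) and USP18 (2.52) are the filled points, and most other genes lie near 0.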

How the data were processed

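Total RNA of ileum from 54 piglets was hybridized to 1-colour arrays, 1 array per piglet. The deposited values are log2 intensities that the authors made with GCOS 1.2 and gcRMA normalization, and they were used as deposited. Arrays give no counts, so the number of arrays limits the precision. The members and gene lists were chosen with earlier results of these data known. All 124 control probesets of the 24123 were left out. Probesets with 1 symbol numbered 10069, with several 198 and with none 13732. Fits used limma 3.58.1 in R 4.3.3, per day over the 3 rearing groups, and over all 9 groups for days and interactions. Calls, adjusted p-values, exact tests and correlations are explained with the results. The study blocked on 3 runs, which the labels do not name, so the reported fits have no block, and blocks on the label numbers were alternatives. At day 56, 1 IR and 1 IN array have no number. List genes were read by the brightest probeset, and called genes were named, at most 4 per list and comparison. The fits were tested on simulated shifts. Figures were drawn in Python with matplotlib.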

Additional observations from a re-analysis of the deposited data

Results flagged for a closer look

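Over 45 sets of 6 arrays, 5 probesets in 9 groups, 3 had a single array apart from the rest by Dixon's criterion, and chance flags about 1 in 20. OUT day 5 replicate 3 was the lowest of its group for DTX3L, at 2.56 with the next at 5.00, and for PARP12, at 6.497 with the next at 7.84. IN day 28 replicate 3 was the lowest of its group for PARP12, at 7.36 with the next at 9.61. Both arrays also stood apart or went against their label over all probesets. Pairs of high arrays, such as IR replicates 1 and 2 at day 5, cannot be found by this criterion, which looks for a lone array.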

How the results depend on the processing

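The number of members called depended on the setting, and where a value changed the cause was not tested. For IR versus OUT at day 5 the count of 1 was 2 with the label number as a replicate block, which added DTX3L, 3 with a block in twos, which added DDX60 and DTX3L, and 0 with only these groups fitted, without IR arrays 1 and 2, without the arrays that stand apart, with array weights and at an adjusted p under 0.05. Leaving out 1 array at a time gave 0 to 1, with 0 without IR replicate 1, IR replicate 2 or OUT replicate 3. The block in twos with only the compared groups gave 1 for IR versus OUT at day 28, 3 for IN versus OUT at day 56 and 3 for IR versus IN at day 5, where the block in twos alone gave 1. Same-numbered arrays deviated together, at a correlation over 0.1, in 6 of 18 pairs at day 5, 8 of 18 at day 28 and 5 of 14 at day 56. For numbers taken in twos this held in 13 of 36 pairs at day 5, 14 of 36 at day 28 and 6 of 29 at day 56, against 19 of 72, 26 of 72 and 16 of 56 pairs of different twos. These pairs join arrays of different rearing groups only, so they cannot show whether 2 piglets of 1 group shared a run. IR arrays 1 and 2 at day 5, and IR arrays 5 and 6 at day 56, were such neighbours in number with alike values. Whether the arrays of such a pair shared a run was not tested. The arrays are taken to share only a number, and the fits and exact permutation tests treat the piglets of a group as independent. IR versus IN at day 56 gave 4 without IR arrays 5 and 6. For day 28 against day 5, array weights gave 5 in IR, 1 in IN and 5 in OUT. The IN count of 3 was 0 to 4 with 1 array left out, with 0 without IN day 28 replicate 1, 2 or 6, 1 without IN day 28 replicate 5 or IN day 5 replicate 3 or 6, and 4 without IN day 28 replicate 3. The OUT count of 3 was 0 to 3, with 0 without OUT day 28 replicate 6 or OUT day 5 replicate 3 and 1 without OUT day 28 replicate 5. It was 1 without the arrays that stand apart and 5 without the day 28 arrays with a day 5 profile.

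Signs turned only for log2 differences that were not called. Without the day 28 arrays with a day 5 profile, IR versus OUT at day 28 was -0.33 for DDX58 on the first probeset and -0.028 for DDX60, and OUT at day 56 against day 28 was -0.66 for DDX60, -0.15 for DTX3L and -0.19 for PARP12. Without these arrays or without those that stand apart, IR versus IN at day 28 was -0.51 and -0.22 for DDX58 and -0.35 for DDX60, and IN at day 56 against day 28 was -0.15 and -0.30 for DDX58. Without those that stand apart, IN versus OUT at day 28 was 0.22 for DTX3L. For IR versus OUT at day 56, PARP12 was 0.17 with the label number as a block, 0.0945 with the block in twos, 0.0591 with that block and only these groups, and 0.0908 with numbered arrays only. Without IR arrays 5 and 6 DDX58 was -1.50 and -0.99 and DDX60 -0.83, and with array weights DDX58 was -0.23 and DDX60 -0.032. With 1 array left out, IR versus OUT at day 56 ranged from -0.44 to 0.86 for DDX58 on the first probeset, -0.18 to 0.59 for DDX60, -0.36 to 0.15 for DTX3L and -0.37 to 0.25 for PARP12. IN versus OUT at day 28 ranged from -0.28 to 0.22 for DTX3L. IR versus IN at day 28 ranged from -0.51 to 0.97 and -0.22 to 1.12 for DDX58 and -0.35 to 1.05 for DDX60. IN at day 56 against day 28 ranged from -0.15 to 0.95 and -0.30 to 0.83 for DDX58. OUT at day 56 against day 28 ranged from -1.02 to 0.083 for DDX58 on the first probeset, -0.13 to 0.85 for DDX60 and -0.13 to 0.37 for DTX3L. The settings that leave out named pairs or odd arrays were chosen after seeing the data.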
